A study of Sus scrofa with 16 samples.

Results

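The cell proliferation genes examined here are a list of 42 genes of the cell cycle, from cyclins and replication factors to mitotic kinases and the motor proteins of cell division. A gene was taken when a pig Ensembl gene ID in the deposited expression table paired with its symbol. By this rule 28 of the 42 genes had an entry, 26 of them were above 0 in at least 1 pig, and the same 26 were above 0 in all 16 pigs. Of these, 20 had a mean of at least 0.5 FPKM and entered the tests. FPKM are fragments counted on a transcript, corrected for its length and for the depth of the library. The 20 genes were among the 13590 entries tested, of 22815 distinct entries in the table. The 14 genes not analysed here for want of a matching ID were MKI67, PCNA, CCNA2, AURKA, BIRC5, CENPA, NUSAP1, PRC1, ECT2, RRM2, TYMS, MCM6, MCM7 and UBE2C. MCM5 and PLK1 were listed at 0 in every pig, and in a table without counts such a 0 can be a failed estimate.

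RNA was sequenced from the left hippocampus of 16 preterm pigs (Danish landrace x Large White x Duroc), delivered by caesarean section and fed increasing amounts of human donor milk of different types beside parenteral nutrition for 8 days. Under this feeding some pigs spontaneously develop necrotizing enterocolitis (NEC), a severe inflammatory bowel disease of preterm newborns. The No NEC group (noNEC, 5 pigs, 2 female and 3 male) was free of macroscopic gut lesions, the Co-NEC group (coNEC, 5 pigs, 2 female and 3 male) had severe lesions in the colon only, and the Si-NEC group (siNEC, 6 pigs, 3 female and 3 male) had severe lesions in the small intestine, with or without the colon. The groups are diagnoses and not assigned treatments, and the labels do not say which pig had which milk. Pig numbers end in 14 or 15 in the labels, which do not say what the ending means, and each group held 2 pigs ending in 14. All 6 pigs ending in 14 were male, whereas 7 of the 10 ending in 15 were female. The litter of each pig is not given in the labels.

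Cells divide after they copy their DNA in S phase and separate the copies in mitosis. Cyclins and their kinases, among them CDK1, drive these steps, and the MCM helicase and CDC45 open DNA for copying. Kinesins, kinetochore proteins and the centralspindlin complex move and part the chromosomes and the daughter cells. Transcripts of many of these genes, though not of all, are largely restricted to cycling cells. In the newborn hippocampus such cells include progenitors of granule neurons in the dentate gyrus, oligodendrocyte precursors and dividing glia and vessel cells.

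The depth of the libraries cannot be read from FPKM values. The FPKM summed to between 544629 and 645197 in 14 pigs, and to 864931 in No NEC pig 230-15 and 823320 in Si-NEC pig 223-15. Their median correlations with all further pigs, 0.902 and 0.933, were below those of any other pig. Markers of hippocampal and excitatory neurons (PROX1, SLC17A7 and CAMK2A) were present in all pigs and summed to between 637 and 928 FPKM. Most of the sum was SLC17A7 (mean 582 FPKM) and CAMK2A (200 FPKM), with PROX1 at 7.90 FPKM. The sum thus shows excitatory neurons and does not by itself check that the tissue was hippocampus. Of the 8 markers on this list, 5 had no entry. In bulk tissue, fewer cycling cells and less RNA of these genes per cell cannot be told apart.

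Transcripts of the proliferation genes were scarce in all groups. The median over the 20 tested genes of the mean level was 1.20 FPKM, against 9.44 FPKM over all entries tested, and 9 of the 20 had a mean under 1 FPKM. RRM1, the large subunit of ribonucleotide reductase that makes deoxynucleotides, had the highest mean at 13.5 FPKM. CCNE1, the cyclin E1 that opens S phase, followed at 12.1 FPKM, whereas its paralog CCNE2 lay at 0.579 FPKM. RACGAP1 (4.41 FPKM), a centralspindlin subunit, and TPX2 (3.54 FPKM), a spindle assembly factor, came next, followed by the replication genes MCM2 (2.56 FPKM), CDC45 (2.54 FPKM) and MCM4 (2.47 FPKM). TOP2A, the DNA topoisomerase that untangles chromosomes, lay at 1.70 FPKM and CDK1 at 0.967 FPKM.

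**Figure D1:**
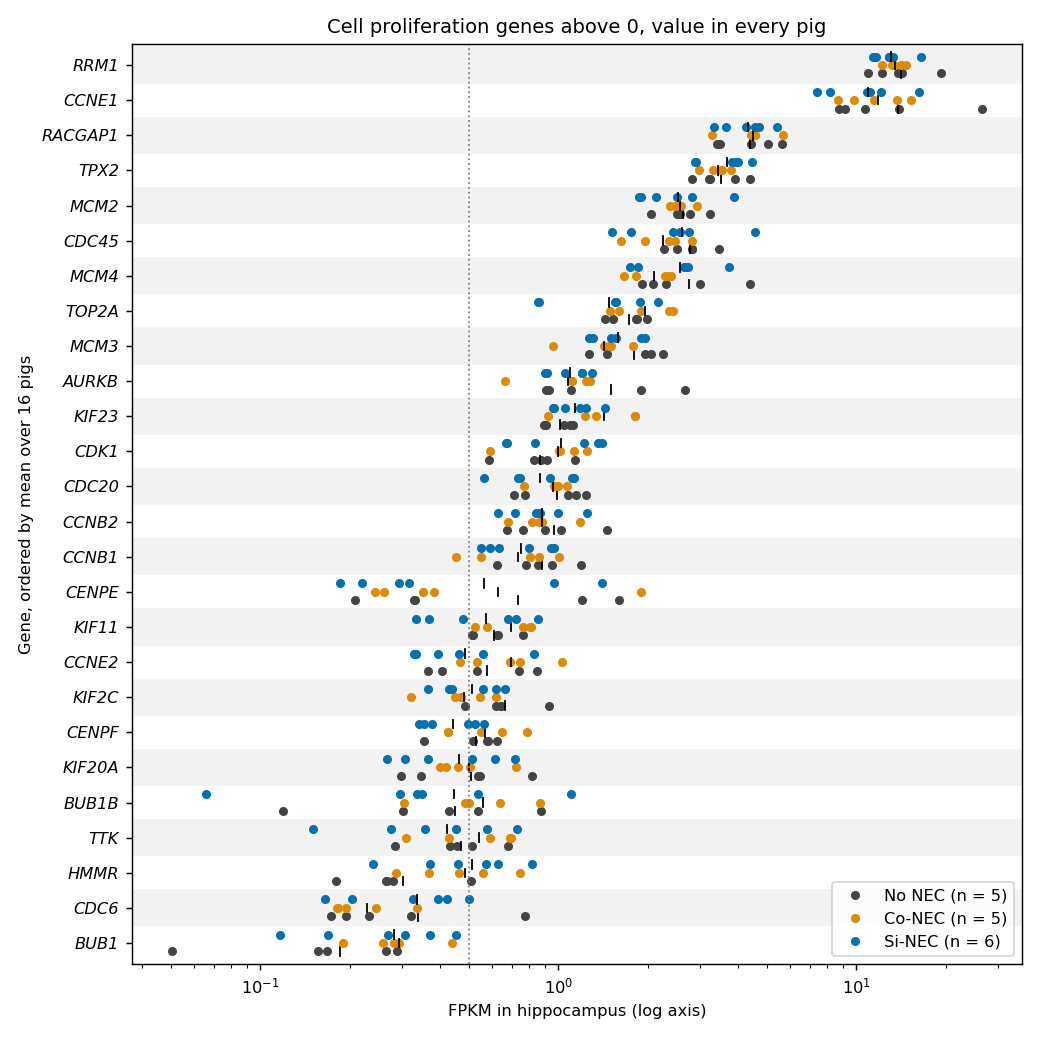
FPKM of the 26 proliferation genes above 0 in each of 16 pigs (log axis), coloured by group, with short black lines for group means and a dotted line at the 0.5 FPKM minimum of the tests. The levels of the 3 groups overlap for each of the 26 genes, and RRM1 and CCNE1 stand above the rest.

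The 6 genes above 0 with a mean under 0.5 FPKM were not tested. They were BUB1, BUB1B and TTK of the spindle checkpoint, CDC6 of replication licensing, the cytokinesis kinesin KIF20A and the spindle protein HMMR. BUB1 ranged from 0.0506 to 0.288 FPKM in No NEC, from 0.189 to 0.440 FPKM in Co-NEC and from 0.116 to 0.453 FPKM in Si-NEC pigs. HMMR ranged from 0.179 to 0.510, from 0.284 to 0.747 and from 0.238 to 0.813 FPKM in the same order. The groups overlapped for all 6 genes.

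Levels of many of these genes were highest or lowest in the same few pigs. Pig 230-15 (No NEC) had the highest value of 7 of the 26 genes, among them CCNE1 (26.4 FPKM), MCM4 (4.39 FPKM), RRM1 (19.2 FPKM) and AURKB (2.66 FPKM), and is one of the pair of pigs with raised FPKM sums. Pig 246-15 (Si-NEC) had the highest value of 5 genes, among them MCM2 (3.88 FPKM) and CDK1 (1.40 FPKM). At the other end, Si-NEC pig 224-15 had the lowest value of 7 genes and Si-NEC pig 539-14 that of 5, both with TOP2A near 0.86 FPKM (0.853 and 0.864 FPKM). The Si-NEC group thus held both the pigs with the least and a pig with nearly the most of this RNA. The mean z score over the 20 tested genes, which sets each pig against the mean of all pigs, was −0.75 in pig 224-15 and −0.96 in pig 539-14, 0.44 in pig 246-15 and 0.91 in pig 230-15. Within groups the tested genes had a median SD of 0.24 on the log2 scale, beside 0.33 for all entries with a mean between 0.5 and 5 FPKM.

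**Figure D2:**
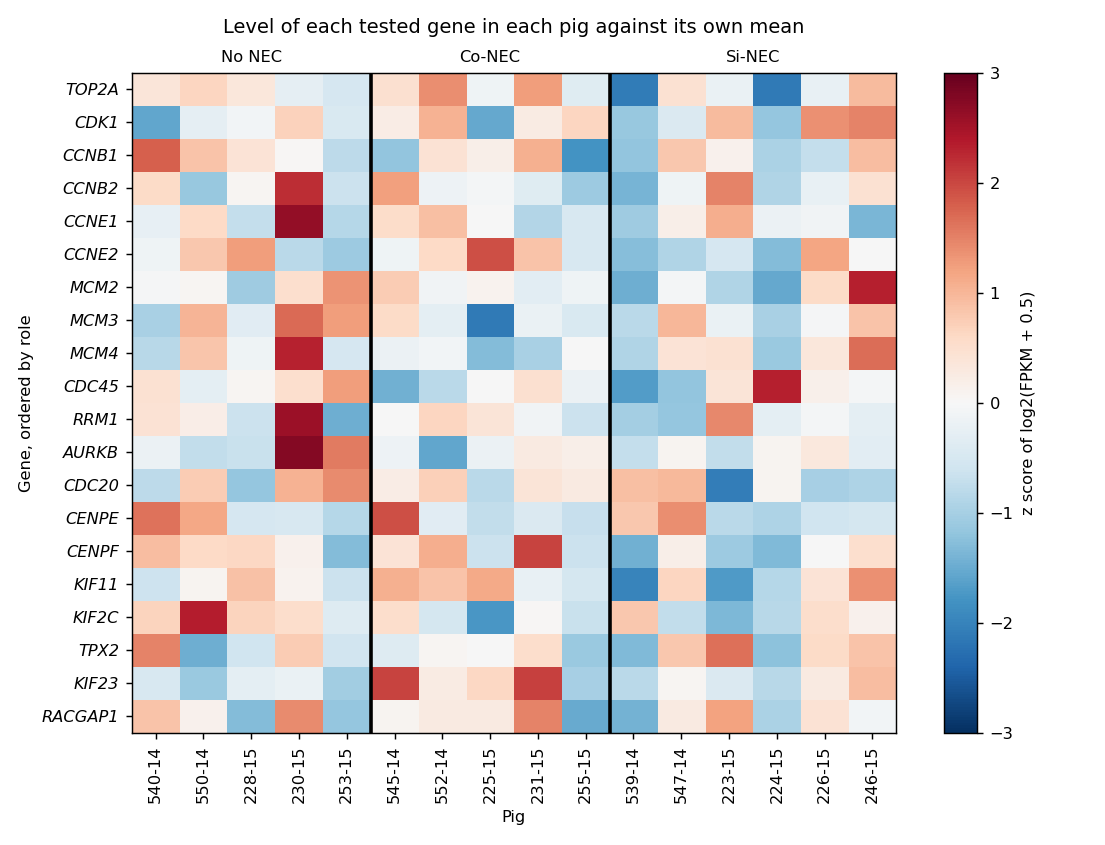
z score of log2(FPKM + 0.5) of the 20 tested genes (rows, by role) in 16 pigs (columns, by group), each gene set against its own mean and SD over all pigs. Red cells are above and blue cells below that mean, with pigs 539-14 and 224-15 mostly blue in the Si-NEC block and pig 230-15 dark red for CCNE1, RRM1 and AURKB.

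Setting Si-NEC beside No NEC pigs asked whether NEC of the small intestine was accompanied by other levels of these genes. The adjusted p threshold of 0.2 was the study's, applied there to Cuffdiff, which called more genes than the test used here. No proliferation gene passed it in Si-NEC against No NEC, where 1 of 13590 entries (0.00736%) did. At an unadjusted p under 0.05 the count was also 0 of 20, beside 2.61% of all entries, and no gene separated the groups without overlap, beside 0.155% of all entries. The level was lower in Si-NEC pigs for 17 of the 20 genes, with a median log2 difference of −0.12, whereas 46.2% of all entries were lower and their median was 0.02. The 20 genes are not separate observations here or in the other comparisons, since many were highest or lowest in the same few pigs. A log2 difference is the first group minus the second in mean log2(FPKM + 0.5), a scale that understates the change of low genes. Without pigs 223-15 and 230-15 the median of the proliferation genes was −0.04.

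TOP2A stood at 1.83, 1.99, 1.83, 1.53 and 1.44 FPKM in the No NEC pigs and between 0.853 and 2.16 FPKM (median 1.56) in the Si-NEC pigs. The Si-NEC range enclosed that of No NEC, with 2 pigs below and 1 above it. This gave a log2 difference of −0.21 with a standard error of 0.20 (exact permutation p = 0.368, two-sided). KIF2C, a kinesin that takes apart microtubules at the kinetochore, averaged 0.664 ± 0.164 FPKM (SD, n = 5) in No NEC and 0.513 ± 0.118 FPKM (SD, n = 6) in Si-NEC pigs. The log2 difference of −0.20 (standard error 0.14) had an adjusted p of 1 and an exact permutation p = 0.0909 (two-sided), and 3 of 6 Si-NEC pigs lay below every No NEC pig. AURKB, the Aurora kinase of the chromosomal passenger complex, averaged 1.50 ± 0.764 FPKM (SD, n = 5) in No NEC and 1.10 ± 0.164 FPKM (SD, n = 6) in Si-NEC pigs. The high No NEC values came from pigs 230-15 (2.66 FPKM) and 253-15 (1.90 FPKM), the other 3 lay within the Si-NEC range, and among pigs ending in 14 alone the log2 difference was 0.04 in place of −0.26.

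By role, all 4 tested replication genes (MCM2, MCM3, MCM4 and CDC45) were lower in Si-NEC pigs, with a median log2 difference of −0.11 and none past the test. Of the 5 cyclin and CDK genes, 4 were lower and CDK1 was higher (0.869 ± 0.199 FPKM in No NEC and 1.02 ± 0.340 FPKM in Si-NEC pigs, SD, n = 5 and 6). The widest interval was that of CENPE, from −0.98 to 0.61. For all 20 genes the unadjusted 95% interval of the log2 difference lay between −1 and 1, and with a pseudocount of 0.1 in place of 0.5 this held for 19.

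For NEC confined to the colon, Co-NEC were compared with No NEC pigs, with 0 of 20 genes past the adjusted test (0.00736% of all entries) and 0 at an unadjusted p under 0.05 (3.44% of all entries). No gene separated these groups without overlap, beside 0.464% of all entries. The level was lower in Co-NEC pigs for 13 genes and higher for 7, with a median log2 difference of −0.03, beside 48.0% lower and a median of 0.01 over all entries. Both comparisons with No NEC use the same 5 pigs.

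KIF23, the motor subunit of centralspindlin at the midzone of dividing cells, came closest to a difference. It stood at 1.05, 0.898, 1.09, 1.12 and 0.913 FPKM in the No NEC pigs and at 1.80, 1.23, 1.34, 1.81 and 0.923 FPKM in the Co-NEC pigs. All Co-NEC pigs except 255-15 (0.923 FPKM) lay above every No NEC pig. The log2 difference was 0.32 (standard error 0.15), with an adjusted p of 0.812 and an exact permutation p = 0.0476 (two-sided), so that it did not pass the test across all entries. Its partner RACGAP1 was at 4.41 ± 0.968 FPKM in No NEC and 4.50 ± 0.858 FPKM in Co-NEC pigs (SD, n = 5 each). KIF2C averaged 0.481 ± 0.112 FPKM (SD, n = 5) in Co-NEC pigs, a log2 difference of −0.24 with an adjusted p of 0.812 (exact permutation p = 0.0476, two-sided), and 3 of 5 Co-NEC pigs were below every No NEC pig.

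CDC45, which joins the MCM ring to form the active helicase, was at 2.77 ± 0.448 FPKM in No NEC and 2.24 ± 0.462 FPKM in Co-NEC pigs (SD, n = 5 each, log2 difference −0.26, exact permutation p = 0.119, two-sided). The other replication genes MCM2, MCM3 and MCM4 had log2 differences of −0.02, −0.25 and −0.28, none past the test. TOP2A stood at 1.90, 2.43, 1.60, 2.35 and 1.49 FPKM in Co-NEC pigs, with a log2 difference of 0.13 (exact permutation p = 0.302, two-sided). The unadjusted 95% interval lay between −1 and 1 for 19 of the 20 genes, with CENPE (−1.04 to 0.73) as the exception.

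Si-NEC and Co-NEC pigs both had severe NEC, with severe lesions of the small intestine in Si-NEC pigs only. Si-NEC pigs could have colon lesions too, so the groups did not differ fully in site. Between these groups, again 0 of 20 genes passed the adjusted test (0.0147% of all entries) or an unadjusted p under 0.05 (5.64% of all entries). None separated the groups without overlap (0.545% of all entries). In Si-NEC pigs 12 genes were lower and 8 higher, with a median log2 difference of −0.04, whereas 49.9% of all entries were lower. TOP2A had the smallest p of the list (log2 difference −0.34, standard error 0.20, adjusted p = 0.867, exact permutation p = 0.147, two-sided). The 2 Si-NEC pigs near 0.86 FPKM were below all Co-NEC pigs, and the other 4 lay within the Co-NEC range. For CCNE2 the values were 0.693 ± 0.219 FPKM (SD, n = 5) in Co-NEC and 0.485 ± 0.190 FPKM (SD, n = 6) in Si-NEC pigs (log2 difference −0.28, exact permutation p = 0.108, two-sided), with 4 of 6 Si-NEC pigs below every Co-NEC pig. KIF23 averaged 1.14 ± 0.182 FPKM (SD, n = 6) in Si-NEC pigs, a log2 difference of −0.21 against Co-NEC (exact permutation p = 0.173, two-sided) without a Si-NEC pig outside the Co-NEC range. MCM4 went the other way at 0.21, with 4 of 6 Si-NEC pigs above every Co-NEC pig, and did not pass the test.

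**Figure D3:**
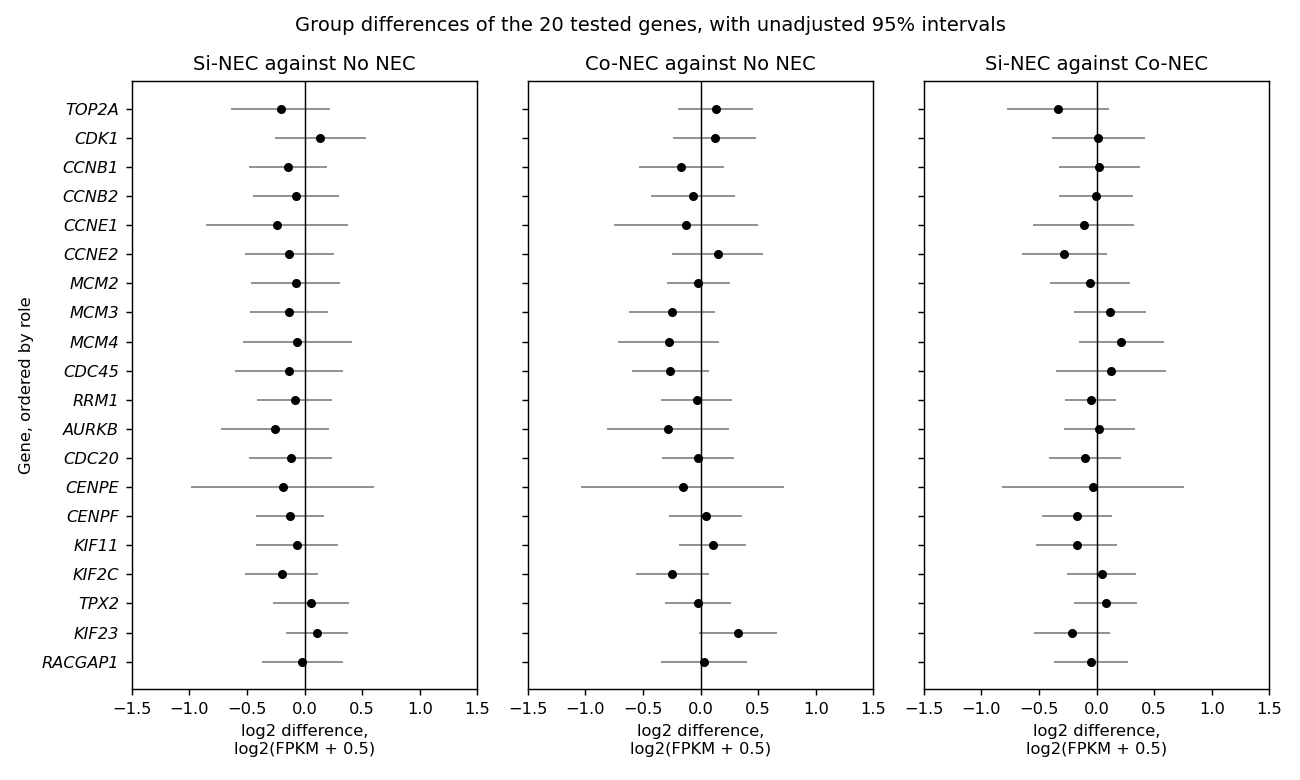
log2 differences of the 20 tested genes on the log2(FPKM + 0.5) scale in the 3 pairwise comparisons of groups of 5, 5 and 6 pigs, with bars for unadjusted 95% intervals from limma. All intervals cross 0, and CENPE has the widest in each comparison.

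CENPE, the kinesin that carries chromosomes along spindle microtubules at the kinetochore, varied among pigs more than any other tested gene (within-group SD 0.68 on the log2 scale), and its level separated the pigs by the ending of their number. In pigs ending in 14 it stood at 1.20 and 1.60 FPKM (No NEC), 0.383 and 1.90 FPKM (Co-NEC) and 0.968 and 1.40 FPKM (Si-NEC). In the 10 pigs ending in 15 it lay between 0.186 and 0.351 FPKM (median 0.276). Every pig ending in 14 was above every pig ending in 15, although the lowest of them, 552-14, was above by little. The ratio of mean FPKM was 4.55, and the log2 difference with the group as a covariate was 1.11 (standard error 0.18).

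This was the smallest p of all 13590 entries (adjusted p = 0.182 by limma), and the exact permutation p with pigs exchanged within each NEC group was 0.000667 (two-sided), the smallest these 1500 splits can give. CENPE was the only proliferation gene past the adjusted threshold, beside 0.0221% of all entries, and the only one whose endings did not overlap, also beside 0.0221%. The call was lost when any pig other than 552-14 was left out (adjusted p between 0.209 and 0.561), while without 552-14 it was 0.00126. With sex as a covariate the log2 difference was 1.08 and the adjusted p 0.674. Among males alone the 6 pigs ending in 14 lay between 0.383 and 1.90 FPKM and the 3 ending in 15 between 0.242 and 0.331 FPKM, so the separation was present within one sex. The 4 microglia markers summed to 37.8 to 73.1 FPKM (median 48.0) in pigs ending in 14 and 44.0 to 113 FPKM (median 64.9) in those ending in 15, and their part in the CENPE difference was not tested.

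CENPF, another large kinetochore protein, had a log2 difference of 0.07 between endings (adjusted p = 0.927). CDC45 was the only other gene with an unadjusted p under 0.05, so that 2 of 20 genes reached it beside 5.11% of all entries. CDC45 went in the opposite direction. It lay between 1.51 and 2.80 FPKM (median 1.86) in pigs ending in 14 and between 2.35 and 4.56 FPKM (median 2.65) in those ending in 15, with 5 of the 6 former below all of the latter. Its log2 difference of −0.44, with a standard error of 0.13, had an exact permutation p = 0.002 (two-sided) but an adjusted p of 0.855. AURKB followed (log2 difference −0.30, exact permutation p = 0.0893, two-sided), and the median over the 20 genes was −0.01. TOP2A had a log2 difference of 0.09 between endings (exact permutation p = 0.595, two-sided).

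**Figure D4:**
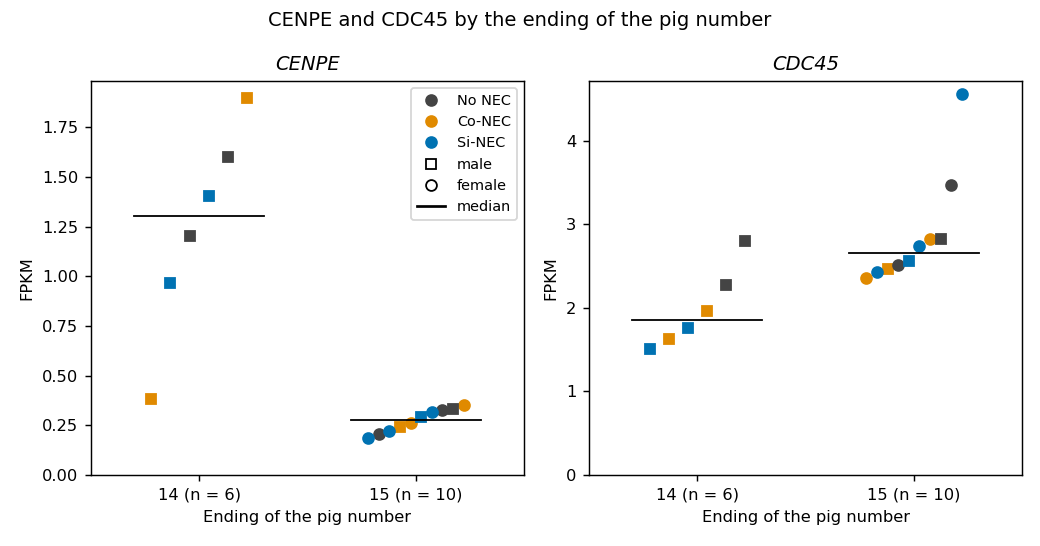
FPKM of CENPE and CDC45 in pigs whose number ends in 14 (n = 6) or 15 (n = 10), coloured by group, with squares for males, circles for females and a line at the median. CENPE lies above 0.38 FPKM in all 6 pigs ending in 14 and at or below 0.351 FPKM in all 10 ending in 15, in each NEC group.

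In the comparison of females with males, CENPE and CDC45 again had the smallest p of the list. Sex and ending cannot be told apart fully, since no female pig ended in 14. The level was lower in females for 17 of the 20 genes, with a median log2 difference of −0.05, whereas 50.8% of all entries were lower. No gene passed the adjusted test (0.0515% of all entries) or separated the sexes without overlap (0.0662%), and 2 of 20 had an unadjusted p under 0.05 (3.25% of all entries). CENPE was at 0.267 ± 0.0653 FPKM (SD, n = 7) in females and 0.924 ± 0.635 FPKM (SD, n = 9) in males (log2 difference −0.76, exact permutation p = 0.0165, two-sided). CDC45 ranged from 2.35 to 4.56 FPKM (median 2.74, n = 7) in females and from 1.51 to 2.82 FPKM (median 2.27, n = 9) in males (log2 difference 0.37, exact permutation p = 0.019, two-sided). With the ending as a covariate, neither gene kept an unadjusted p under 0.05. Among pigs ending in 15, CENPE lay between 0.186 and 0.351 FPKM (median 0.261) in 7 females. In the 3 males of that ending it lay between 0.242 and 0.331 FPKM (median 0.292). The medians of CDC45 in the same pigs were 2.74 FPKM in females and 2.56 FPKM in males. CCNE1 followed with a log2 difference of −0.37 (exact permutation p = 0.117, two-sided), its highest male value being that of pig 230-15, and TOP2A stood at −0.02 (exact permutation p = 0.875, two-sided).

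Whether cycling genes of different phases rise and fall together among pigs was examined with CDK1, taken in place of MKI67, which had no entry. CDK1 and TOP2A, both highest in G2 and mitosis, correlated with Pearson's r = 0.445 (permutation p = 0.0844, adjusted 0.384) and Spearman's rho = 0.341 (permutation p = 0.195, adjusted 0.52) over 16 pigs. CDK1 with the S phase gene MCM2 gave r = 0.431 (permutation p = 0.0961, adjusted 0.384) and rho = 0.265 (permutation p = 0.322, adjusted 0.587). The p-values were adjusted over 4 pairs and 2 measures, and neither relation passed. Without the pair of pigs farthest from the CDK1 median, 540-14 and 225-15, r was 0.594 with TOP2A (rho = 0.512) and 0.550 with MCM2 (rho = 0.424), with adjusted p-values between 0.163 and 0.260. Within the 6 pigs ending in 14, r was 0.628 with TOP2A (exact permutation p = 0.172) and 0.445 with MCM2 (exact permutation p = 0.386), and rho was 0.886 (exact permutation p = 0.0333, adjusted 0.266) and 0.2 (exact permutation p = 0.714). Within the 10 pigs ending in 15 r was 0.466 (permutation p = 0.177) and 0.418 (permutation p = 0.229), and rho 0.285 (permutation p = 0.424) and 0.430 (permutation p = 0.217). In the 6 Si-NEC pigs alone r was 0.771 with TOP2A (exact permutation p = 0.0875) and 0.774 with MCM2 (exact permutation p = 0.0736), and rho was 0.771 (exact permutation p = 0.103) and 0.943 (exact permutation p = 0.0167, adjusted 0.134).

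No relation of CDK1 was detected with PDGFRA, the receptor that marks oligodendrocyte precursors (r = −0.187, permutation p = 0.535, rho = −0.176, permutation p = 0.515), or with ALAS2, the heme synthesis enzyme of red cell precursors (r = −0.109, permutation p = 0.703, rho = −0.241, permutation p = 0.367). Their adjusted p-values lay between 0.587 and 0.703. Within endings, r with PDGFRA was 0.298 (14) and −0.226 (15), and with ALAS2 0.171 (14) and −0.483 (15).

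**Figure D5:**
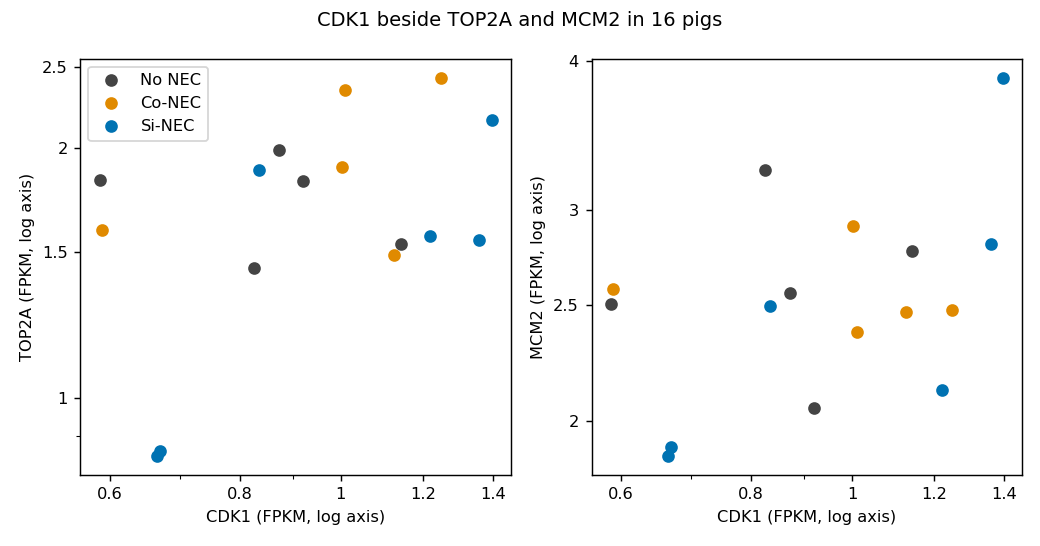
FPKM of CDK1 against TOP2A (left) and MCM2 (right) in 16 pigs, both axes on a log scale, coloured by group. In both panels Si-NEC pigs 539-14 and 224-15 lie lowest and close to each other, and Si-NEC pig 246-15 lies at the upper right.

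The genes most like the list were sought as a description, by the correlation over 16 pigs of each named entry outside the list with the mean z score of the 20 genes, group means removed. The 10 highest were SERPINB8 (r = 0.931), NRDE2 (r = 0.910), VCAM1 (r = 0.873), EIF2D (r = 0.857), TSNAX (r = 0.846), XRN2 (r = 0.845), EXOSC10 (r = 0.843), SRPK1 (r = 0.843), PBLD (r = 0.842) and ZNF367 (r = 0.831). None of them belongs to the further cell cycle lists. The median r was 0.472 over 14 other replication genes and 0.371 over 19 other mitosis genes. It was also 0.419 over 9 genes listed as brakes of the cycle, and 0.086 over 4 genes of cycle entry. Over all 8292 candidates it was 0.176. The points share their libraries. With group means removed, the most extreme scores were those of pigs 539-14 (−0.83), 230-15 (0.75), 246-15 (0.67), 224-15 (−0.62) and 255-15 (−0.61).

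Further genes of the pathway were counted from 4 lists. Of 14 other replication genes, 12 were lower in Si-NEC and 12 in Co-NEC than in No NEC pigs (medians −0.13 and −0.08), and 0 passed the adjusted test. CDT1, which loads the MCM ring onto origins, stood at 5.64, 6.27, 4.35, 7.27 and 5.39 FPKM in No NEC and at 4.56, 3.95, 3.60, 3.65 and 4.19 FPKM in Co-NEC pigs. All Co-NEC pigs except 545-14 lay below every No NEC pig, with a log2 difference of −0.47 in Co-NEC (adjusted p = 0.812) and −0.44 in Si-NEC pigs (adjusted p = 1). E2F1, the transcription factor that turns on S phase genes, had a log2 difference of −0.39 in Co-NEC pigs (adjusted p = 0.812).

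Among 19 other mitosis genes 12 were lower in the Si-NEC than in the No NEC pigs (median −0.11), 9 were lower in Co-NEC (median 0.02), and none passed the adjusted test. SPC25, a subunit of the NDC80 kinetochore complex, had a log2 difference of 0.43 in Co-NEC against No NEC pigs (adjusted p = 0.812) and −0.47 in Si-NEC against Co-NEC pigs (adjusted p = 0.851). SMC2, a core subunit of condensin, had a log2 difference of −0.34 in Si-NEC against Co-NEC pigs (adjusted p = 0.867). The 4 genes of cycle entry and the 9 brakes of the cycle, which hold cells out of division, had medians of 0.07 and 0.07 in Si-NEC and 0.02 and 0.02 in Co-NEC against No NEC pigs, with none past either threshold.

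Markers of the cells that could carry these transcripts were set beside the groups. The 6 neural progenitor and immature neuron markers measured all had a higher mean in the Si-NEC than in the No NEC pigs (median log2 difference 0.22), with none past the adjusted test, although the proliferation genes were mostly lower there. Their summed level overlapped between groups, at 471 to 935 FPKM in No NEC, 483 to 586 FPKM in Co-NEC and 546 to 1160 FPKM in Si-NEC pigs, and FABP7 and VIM, which astrocytes also express, made up most of it. SOX11 had a log2 difference of 0.36 in Si-NEC (adjusted p = 1) and DCX, of migrating young neurons, 0.27 in Co-NEC pigs (adjusted p = 0.812). That list had a median of 0.08 in Co-NEC against No NEC pigs, with 4 markers higher and the other two, FABP7 (−0.14) and VIM (−0.12), lower. The 4 oligodendrocyte precursor markers summed to 214 to 336, 249 to 310 and 233 to 296 FPKM in the same order of groups. Of these, PDGFRA (log2 difference −0.33, adjusted p = 0.867) and PTPRZ1 (−0.35, adjusted p = 0.854) were lower in the Si-NEC than in the Co-NEC pigs at an unadjusted p under 0.05 only, while CSPG4 (0.29) and OLIG1 (0.05) went the other way, so that 2 of the 4 were lower and 2 higher.

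Endothelial PECAM1 had a log2 difference of 0.48 between Si-NEC and Co-NEC pigs (adjusted p = 0.858), while KDR (−0.35) and FLT1 (−0.12) had lower and TEK (0.08) higher means. The median of these 4 endothelial markers was −0.02, and they summed to 11.4 to 30.7 FPKM in No NEC, 19.5 to 26.7 FPKM in Co-NEC and 19.3 to 34.9 FPKM in Si-NEC pigs. The neutrophil list summed to 1.09 to 3.50 FPKM in No NEC, 1.04 to 2.63 FPKM in Co-NEC and 2.65 to 25.3 FPKM in Si-NEC pigs, with 1 of its 5 measured genes, CSF3R, at 0 in every pig. Most of this was S100A8 (log2 difference of Si-NEC from No NEC pigs 2.24, adjusted p = 1, and from Co-NEC pigs 2.47, adjusted p = 0.634). Its unadjusted p by limma against No NEC was 0.00148, and 5 of 6 Si-NEC pigs lay above every No NEC pig. With Cuffdiff the paper called S100A8 upregulated by Si-NEC, and it found the same direction by qPCR in a larger set of pigs. The microglia markers summed to 44.0 to 99.8, 46.3 to 75.2 and 37.8 to 113 FPKM, the erythroid markers to 82.8 to 1288, 72.3 to 324 and 22.3 to 246 FPKM and the choroid plexus markers to 5.14 to 23.7, 0.311 to 13.5 and 5.73 to 25.7 FPKM in No NEC, Co-NEC and Si-NEC pigs. The medians of the erythroid sums were 129, 181 and 199 FPKM in No NEC, Co-NEC and Si-NEC pigs. The value of 1288 FPKM was that of No NEC pig 550-14, with HBB at 1281 FPKM. HBB and ALAS2 had log2 differences of −0.73 and −0.74 in Si-NEC against No NEC pigs, neither past the test. Both were called downregulated there by the paper, through Cuffdiff and qPCR. The choroid plexus value of 0.311 FPKM was that of Co-NEC pig 255-15, where TTR was listed at 0. The part of the cell types marked here in the levels of the proliferation genes was not tested.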

How the data were processed

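The authors trimmed paired reads, aligned them to Sscrofa 10.2 with TopHat 2.1.1 and estimated gene levels as FPKM with Cufflinks 2.2.1, and they compared groups with Cuffdiff. The deposited table holds FPKM per gene and pig without counts. The scaling between pigs is not given in the sources used here. Of 24594 rows, 1779 identical ones were dropped. Symbols came from a table of pig gene IDs. Genes with several distinct entries were left out of the lists as uncertain. No sequence was analysed here.

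Groups were compared pairwise with limma 3.58.1 (R 4.3.3, eBayes with a trend) on log2(FPKM + 0.5) over entries whose mean reached 0.5 FPKM, with Benjamini-Hochberg adjustment over all 13590 and a threshold of 0.2. Number ending and sex were tested over 16 pigs with the group as a covariate. Exact two-sided permutation tests exchanged pigs between the groups (scipy 1.17.1), or within NEC groups for ending and sex. Correlations used 100000 permutations (numpy 2.4.6). The script was tested on simulated data. Named with full statistics were TOP2A and, in each comparison, the 3 tested genes with the smallest p. From the other lists, genes with an unadjusted p under 0.05 in a group comparison were named, up to 3 per list. The members, lists and tests were chosen with earlier results of these data known. Each pig is an animal of its own, but litters are unknown, so p-values measure the spread between pigs only.

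Alternatives were pseudocounts of 0.1 and 1, no filter, a minimum mean of 1 FPKM, median-of-ratios rescaling, covariates for sex or ending, all groups in one fit, no trend, robust estimation, array weights and each pig left out. Leaving out pigs 223-15 and 230-15 together, single endings and males only were added after the data were seen.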

Additional observations from a re-analysis of the deposited data

Results flagged for a closer look

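In 3 of 78 sets of one gene in one group, a single pig lay far outside the others by Dixon's test at its 95% critical value, and chance gives about 1 in 20. CDC6 was at 0.772 FPKM in No NEC pig 230-15, and the next highest No NEC pig was at 0.321 FPKM. AURKB was at 0.665 FPKM in Co-NEC pig 552-14, the next lowest Co-NEC pig being at 1.11 FPKM. CENPE was at 1.90 FPKM in Co-NEC pig 545-14, followed by 0.383 FPKM in pig 552-14, the other Co-NEC pig ending in 14. No group difference of a tested gene differed between sexes or endings at an adjusted p of 0.2 (120 interactions, lowest adjusted p 0.274). One of these, RRM1 in Si-NEC against No NEC by sex, had an unadjusted p under 0.05.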

How the results depend on the processing

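No proliferation gene was called in a comparison of NEC groups under any alternative run, and none between sexes. The median log2 difference of the tested genes moved by less than 1 SD between pigs in each alternative except Si-NEC against Co-NEC among pigs ending in 14 (−0.21). Leaving out each pig gave medians from −0.14 to −0.06 for Si-NEC and −0.08 to 0.03 for Co-NEC against No NEC. Genes with an unadjusted p under 0.05 in Co-NEC against No NEC went from 0 to 1, KIF23, with no filter, all 3 groups in one fit, no trend, array weights or without pig 255-15 (0 to 1 over the pigs left out). In Si-NEC against Co-NEC the count was 0 to 1 over the pigs left out, KIF23 without pig 255-15 and CCNE2 without pig 226-15. AURKB in Si-NEC against No NEC turned to 0.038 with array weights and to 0.044 among pigs ending in 14.

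For CENPE between endings, 1 gene was called, and 0 with a minimum mean of 1 FPKM (CENPE not tested), with sex as a covariate, without pigs 223-15 and 230-15, and in males only, against 2 (CENPE and CDC45) with array weights and 0 to 1 over the pigs left out. Its log2 difference stayed between 0.78 and 1.73 in the 26 alternatives that tested it. The number with an unadjusted p under 0.05 was 1 at the higher minimum for ending and for sex, and for sex 0 with the ending as a covariate and 0 in pigs ending in 15. TOP2A between sexes turned to 0.065 with the ending as a covariate, to 0.054 in pigs ending in 15 and ranged from −0.11 to 0.058 over the pigs left out.

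Counts of all entries called moved more. Si-NEC against No NEC had 1, and 2 with the ending as a covariate, 4 with array weights, 4 and 2 in pigs ending in 15 and 14, and 1 to 3 over the pigs left out. Co-NEC against No NEC had 1, and 4 with no filter, 3 and 10 in pigs ending in 15 and 14, and 1 to 2 over the pigs left out. Si-NEC against Co-NEC had 2, and 1 with a pseudocount of 0.1, no filter, either covariate, all 3 groups in one fit or without pigs 223-15 and 230-15, 8 in pigs ending in 14, 201 with array weights and 1 to 12 over the pigs left out. Ending had 3, and 1 with no filter, sex as a covariate or without pigs 223-15 and 230-15, 0 at the higher minimum, 940 with array weights and 0 to 1 over the pigs left out.

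CDK1 with TOP2A reached an unadjusted p under 0.05 with group means removed (r = 0.551), ending means removed (r = 0.522), without the pair of pigs farthest in CDK1 (r = 0.594) and without pig 540-14 (r = 0.534), and ranged from 0.344 to 0.534 over the pigs left out. CDK1 with MCM2 did so without that pair (r = 0.550), without pig 253-15 (r = 0.513) and without pig 223-15 (r = 0.525), and ranged from 0.258 to 0.525. The cause of these changes was not tested. FPKM without counts leaves the counting error of these low levels unknown. No paired analysis was possible because the labels give the pigs no numbers shared between groups.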
